A study of Mus musculus with 28 samples.

Results

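The contacts described here are those of 2 neighbouring sites of mouse chromosome 17 with the rest of that chromosome at distances above 1 Mb. They were measured by 4C-seq: crosslinked chromatin is digested and ligated, and inverse PCR from a selected fragment, the viewpoint, recovers the sequences ligated to it. A member is a chromosome 17 restriction fragment with reads whose midpoint lies more than 1 Mb from the midpoint of the viewpoint fragment, which is the fragment with most reads. The choice rests on position alone. There were 783 such fragments in the Six2 promoter del36 library, 716 in Six2 promoter WT, 964 in PE Six3 del36 and 740 in PE Six3 WT. They made up 2857 distinct fragments of the 99194 distinct fragments with reads in the 13 libraries analysed here.

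The viewpoints were the promoter of Six2, a homeobox gene of kidney progenitors, at chr17:85689020-85689800 (mm10), and PE Six3 at chr17:85485041-85485766. PE Six3 is a poised enhancer of Six3, a homeobox gene of the forebrain and eye, and lies 204 kb from the Six2 viewpoint. All 4 libraries were from the embryonic stem cell line E14Tg2a, whose cell type label reads 2i+LIF ESC while the growth protocol describes medium with FBS and LIF. The del36 cells lack the boundary between the topologically associating domains of Six3 and Six2, and the WT cells are wild type. Neither the number of clones nor any pooling of cultures is given in the labels, and contact data hold no expression values against which the cell type could be checked. Each condition is a single library without replication, so each difference given is one between libraries and carries no test. The stretch chr17:85629635-85666796, chosen because PE Six3 del36 had 0 reads in it (which allows up to 3), held 42934 reads in PE Six3 WT. At the other viewpoint it held 796 reads in Six2 promoter del36 and 13485 in Six2 promoter WT.

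As background, a chromosome fills its own territory in the nucleus, and the contact frequency of 2 loci falls with the length of DNA between them. Most regulatory contacts of enhancers and promoters are found inside a domain. Beyond it, contacts are sparse and follow the separation of gene-rich, active chromatin (compartment A) from gene-poor, inactive chromatin (compartment B), and targets of Polycomb complexes can meet over long distances. In a 4C library a single ligation event can be amplified to many reads, so the number of different fragments and the number of reads are separate measures.

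Fragments were bounded by NlaIII sites (CATG), and DpnII (GATC) was the second enzyme. Members that overlapped a promoter window, as defined next, were 1.40% of all members in Six2 promoter del36 and 0.98% in Six2 promoter WT. They were 0.41% in PE Six3 del36 and 0.81% in PE Six3 WT. Each window has only 300 bases, and the share of the sequence in such windows is not given here. Of 869 promoter windows of coding genes beyond 1 Mb (250 bases before to 50 after the start, RefSeq, GRCm38.p6), 11 were overlapped in Six2 promoter del36, 7 in Six2 promoter WT, 4 in PE Six3 del36 and 5 in PE Six3 WT. A CATG was present in 56.4% and a GATC in 48.9% of these windows (both palindromic, so 1 strand shows all; a CATG followed by ATC also overlaps a GATC). A member with over 100 reads overlapped each of the following 3 windows, in part for Ppt2 and whole for Alk and Dnah8. The window of Tubb4a, overlapped by a member with 396 reads in PE Six3 WT, also met this rule and is not shown. Capitals mark CATG and GATC, and each sequence reads 5′ to 3′ on the strand of its gene.
Ppt2 (chr17:34628230-34628529, minus strand): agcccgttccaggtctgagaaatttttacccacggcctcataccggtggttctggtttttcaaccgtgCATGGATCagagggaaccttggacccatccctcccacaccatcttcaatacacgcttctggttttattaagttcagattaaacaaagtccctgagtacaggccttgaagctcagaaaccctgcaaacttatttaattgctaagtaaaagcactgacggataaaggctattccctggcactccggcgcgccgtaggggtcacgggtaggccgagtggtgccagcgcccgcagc
Alk (chr17:72604258-72604557, minus strand): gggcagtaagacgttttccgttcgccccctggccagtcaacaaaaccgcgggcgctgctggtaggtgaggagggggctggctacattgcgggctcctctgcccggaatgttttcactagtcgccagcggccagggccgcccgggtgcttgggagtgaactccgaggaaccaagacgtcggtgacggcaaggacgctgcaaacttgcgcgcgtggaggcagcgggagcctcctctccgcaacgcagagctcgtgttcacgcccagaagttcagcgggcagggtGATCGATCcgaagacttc
Dnah8 (chr17:30626686-30626985, plus strand): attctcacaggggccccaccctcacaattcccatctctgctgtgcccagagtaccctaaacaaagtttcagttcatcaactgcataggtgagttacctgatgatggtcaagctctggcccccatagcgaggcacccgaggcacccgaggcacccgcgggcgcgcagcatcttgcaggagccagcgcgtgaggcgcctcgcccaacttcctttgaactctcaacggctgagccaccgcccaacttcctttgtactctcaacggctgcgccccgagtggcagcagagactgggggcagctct
Ppt2 encodes a lysosomal thioesterase, Alk a receptor tyrosine kinase and Dnah8 a heavy chain of axonemal dynein. In the Ppt2 window the member began at the CATG and took in the 68 bases upstream of it. That member had 192 reads in Six2 promoter del36 and 0 in each of the other 3 libraries. The Alk window holds no CATG and lay whole inside a member of 2547 bases, which had 1 read in Six2 promoter del36 and 117 in Six2 promoter WT. The Dnah8 window also lay whole inside its member, which had 0 reads in PE Six3 del36 and 1395 in PE Six3 WT.

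Far contacts took a small share of chromosome 17 reads, and the share was larger from the enhancer than from the promoter. Reads beyond 1 Mb were 1.35% of all chromosome 17 reads in Six2 promoter del36 (95% Wilson interval 1.34% to 1.36%; 73207 of 5417482 reads). The share was 1.20% in Six2 promoter WT (1.19% to 1.21%; 65602 of 5449822). From PE Six3 it was 6.80% in del36 (6.76% to 6.83%; 125970 of 1853848) and 5.21% in WT (5.19% to 5.22%; 375387 of 7207948). Reads carried no molecular identifiers, so these intervals cover counting error only. The viewpoint fragment itself held between 35.2% and 83.9% of the reads of each library and sets much of the denominator.

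With 10 kb on each side of the viewpoint left out, the 4 shares moved closer together. They were 23.5% in Six2 promoter del36, 28.4% in Six2 promoter WT, 26.2% in PE Six3 del36 and 23.5% in PE Six3 WT. Counted as fragments, members were 45.4% of the chromosome 17 fragments with reads in Six2 promoter del36 (43.1% to 47.7%), 48.0% in Six2 promoter WT (45.5% to 50.6%), 36.6% in PE Six3 del36 (34.8% to 38.5%) and 39.4% in PE Six3 WT (37.3% to 41.7%). In the 9 libraries of viewpoints on chromosomes 11 and 18, measured in the same way on their own chromosome, the share of reads without 10 kb on each side ran from 27.0% to 41.5%, and that of fragments from 32.5% to 46.2%.

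The direction of del36 against WT depended on the measure. On the share of chromosome 17 reads, del36 over WT gave a log2 ratio of 0.17 (0.15 to 0.18) at the Six2 promoter and 0.38 (0.37 to 0.39) at PE Six3. With 10 kb on each side left out it was -0.27 (-0.29 to -0.26) at the Six2 promoter and 0.15 (0.14 to 0.16) at PE Six3. On the share of fragments it was -0.08 (-0.23 to 0.07) at the Six2 promoter and -0.11 (-0.25 to 0.03) at PE Six3, and both intervals hold 0. No direction is therefore given for the effect of the deletion on the total of far contacts.

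**Figure D1:**
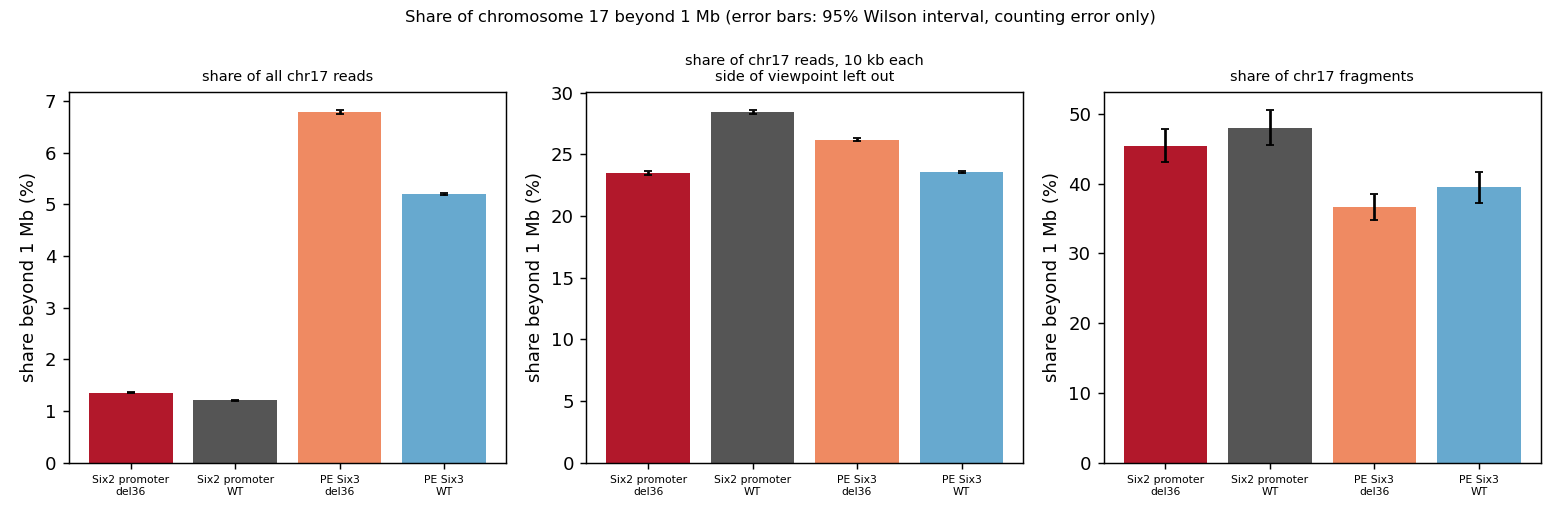
Share (%) of chromosome 17 beyond 1 Mb by 3 measures: all chromosome 17 reads, reads without 10 kb on each side of the viewpoint, and fragments. Bars are single libraries and error bars 95% Wilson intervals. On reads, PE Six3 del36 at 6.80% and WT at 5.21% stand above Six2 promoter del36 at 1.35% and WT at 1.20%, while on fragments the Six2 promoter libraries are the higher.

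The members at the limit show how uneven single fragments were. The first member beyond 1 Mb had 206 reads in Six2 promoter del36 and 2 reads in Six2 promoter WT. It had 818 reads in PE Six3 del36 and 2482 reads in PE Six3 WT. The last fragment inside 1 Mb had 147 reads in Six2 promoter del36, 1 read in Six2 promoter WT, 106 reads in PE Six3 del36 and 515 reads in PE Six3 WT.

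A minority of members held most of the far reads. The median member had 10 reads in Six2 promoter del36, 6 in Six2 promoter WT, 34 in PE Six3 del36 and 12 in PE Six3 WT. Members with 100 or more reads numbered 190 in Six2 promoter del36 and 149 in Six2 promoter WT, and held 87.9% and 90.0% of the far reads of these libraries. They numbered 274 in PE Six3 del36 and 299 in PE Six3 WT, with 86.1% and 98.9% of the far reads. At the other end, 194 members of Six2 promoter del36, 195 of Six2 promoter WT, 137 of PE Six3 del36 and 230 of PE Six3 WT had 1 read. Thinned to 65602 far reads each, the libraries would hold 762 members in Six2 promoter del36, 716 in Six2 promoter WT, 884 in PE Six3 del36 and 478 in PE Six3 WT.

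The tallest members lay near and far from the viewpoint. In Six2 promoter del36 the tallest was at chr17:88595979-88596219, 1.40 kb from Ston1, which encodes an endocytic adaptor, with 1548 reads against 2 in Six2 promoter WT. The second, with 1131 reads against 0, was 15.7 kb from Dazl, a germ cell RNA-binding protein gene, at 35.4 Mb from the viewpoint. The third lay in Sos1, which encodes a Ras exchange factor, and had 1110 reads in del36 and 3 in WT. In Six2 promoter WT the tallest, at chr17:45888703-45889116, had 402 reads in del36 and 3646 in WT and lay 128 kb from Vegfa, a vascular growth factor gene, at 39.8 Mb from the viewpoint. These peaks were nearly absent from the other genotype, with the Vegfa neighbour as the exception.

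From PE Six3 the pattern was the same. The tallest member of PE Six3 del36 lay 8.42 Mb away at chr17:77066627-77066895, 1133 kb from the nearest coding gene, Crim1, with 1415 reads in del36 and 1 in WT. The second lay in Eif2ak2, which encodes a kinase that senses double-stranded RNA, with 1336 reads in del36 and 0 in WT. In PE Six3 WT the tallest was at chr17:84296325-84296874 in Thada, with 0 reads in del36 and 9433 in WT. The third lay 38.3 Mb away in Trerf1, which encodes a zinc finger transcriptional regulator, with 1 read in del36 and 8511 in WT. None of the 20 tallest members (5 per library) had a read in the 9 libraries of other viewpoints. The share of all members read in those libraries is not given here, so this does not set the tallest apart. Members seldom recurred between viewpoints: 1.02% of those of Six2 promoter del36 and 0.83% of those of PE Six3 del36 were read from both. In WT these shares were 0.56% and 0.54%.

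Contacts fell steeply within 5 Mb. The first bin on each side, 1 to 2 Mb from the viewpoint, held 32.2% of the far reads in Six2 promoter del36, 31.4% in Six2 promoter WT, 29.9% in PE Six3 del36 and 29.6% in PE Six3 WT. It held 64.0 fragments with reads per Mb in Six2 promoter del36, 59.0 in Six2 promoter WT, 104 in PE Six3 del36 and 70.5 in PE Six3 WT. From 2 to 5 Mb these densities were 11.5 per Mb in Six2 promoter del36, 9.33 in Six2 promoter WT, 22.7 in PE Six3 del36 and 16.7 in PE Six3 WT.

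Between 5 and 60 Mb the density changed less. At PE Six3 it was 11.9 fragments per Mb in del36 and 8.40 in WT at 5 to 10 Mb, and 11.6 in del36 and 9.10 in WT at 10 to 20 Mb. It was 8.10 in del36 and 6.90 in WT at 20 to 40 Mb, and 7.10 in del36 and 5.90 in WT at 40 to 60 Mb. At the Six2 promoter it was lowest inside 60 Mb at 5 to 10 Mb, with 6.09 per Mb in del36 and 5.98 in WT. There it was 8.30 in del36 and 6.50 in WT at 10 to 20 Mb, 7.75 in del36 and 6.65 in WT at 20 to 40 Mb, and 8.95 in del36 and 8.70 in WT at 40 to 60 Mb. The difference between viewpoints was not tested.

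**Figure D2:**
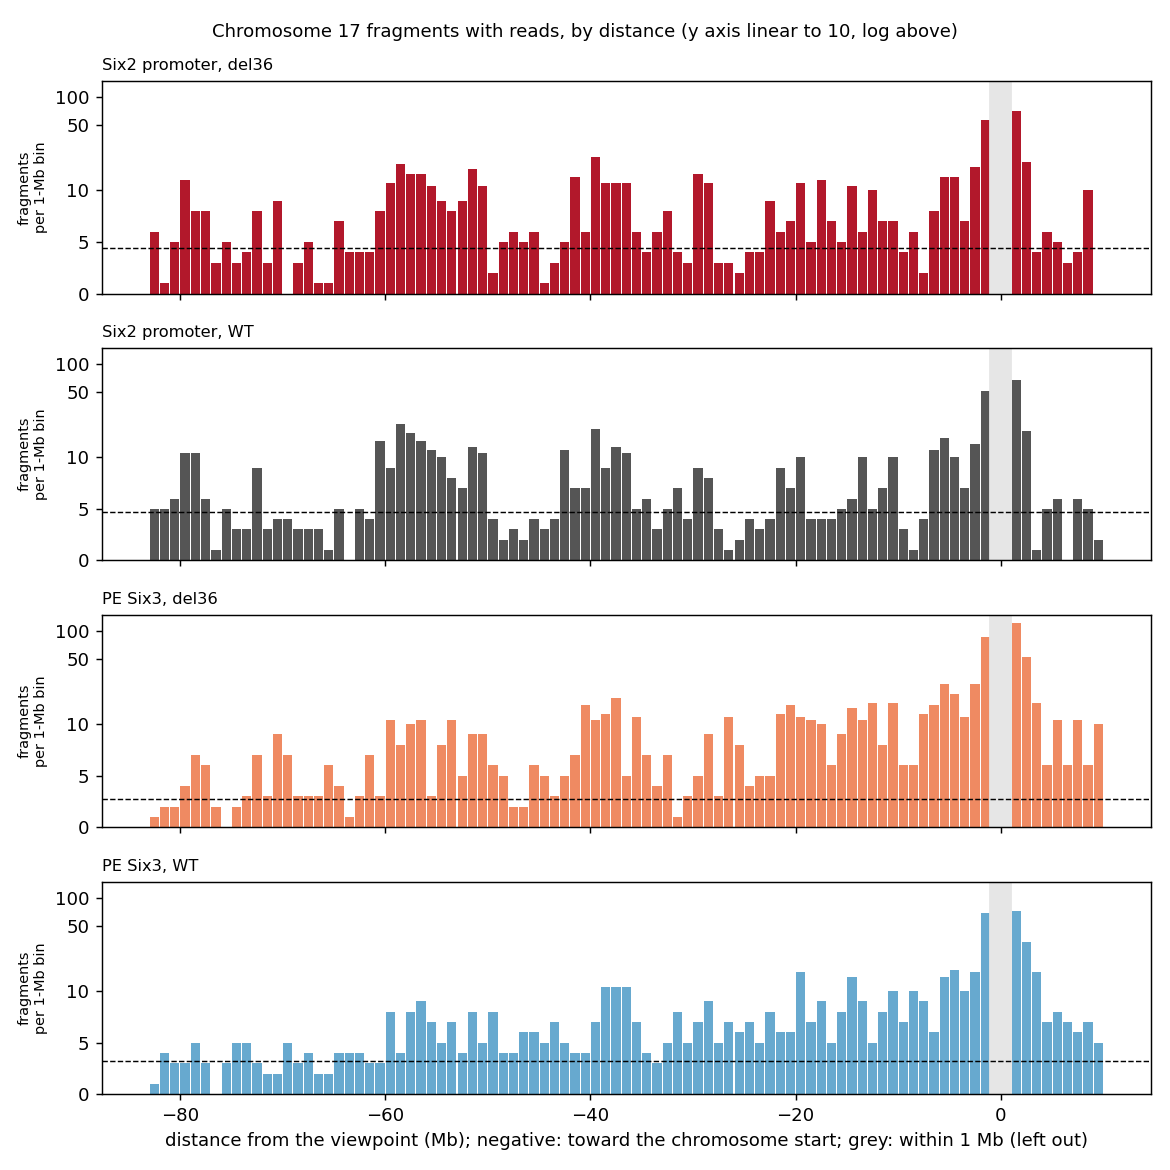
Number of chromosome 17 fragments with reads per 1-Mb bin (vertical axis linear to 10, logarithmic above) against signed distance from the viewpoint in Mb, 1 panel per library, del36 above WT. The dashed line is the mean of 1-Mb bins of other autosomes (4.43 in Six2 promoter del36, 4.65 in Six2 promoter WT, 2.79 in PE Six3 del36, 3.24 in PE Six3 WT). The Six2 promoter panels show some taller bins between 36 and 60 Mb, with 23 fragments at 39 Mb in del36 and at 58 Mb in WT. Others there are low, with 1 fragment at 44 Mb in del36 and 2 at 48 Mb in WT. PE Six3 del36 also has taller bins there, with 19 fragments at 37 Mb and 16 at 40 Mb.

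Counted as fragments, the far end of the chromosome came close to the level of other autosomes. There, fragments with reads averaged 4.43 per 1-Mb bin in Six2 promoter del36, 4.65 in Six2 promoter WT, 2.79 in PE Six3 del36 and 3.24 in PE Six3 WT, over 2302 bins. At 1 to 2 Mb the density on chromosome 17 was 14.4 times this mean in Six2 promoter del36, 12.7 times in Six2 promoter WT, 37.3 times in PE Six3 del36 and 21.7 times in PE Six3 WT. Beyond 60 Mb it was 1.12 times the mean in Six2 promoter del36, 1.09 times in Six2 promoter WT, 1.40 times in PE Six3 del36 and 1.00 times in PE Six3 WT. Of 91 outward bins, 62 in Six2 promoter del36, 55 in Six2 promoter WT, 81 in PE Six3 del36 and 76 in PE Six3 WT stood above the mean of the other autosomes. Of the bins of other autosomes themselves, 40.4% did so in Six2 promoter del36, 41.9% in Six2 promoter WT, 48.0% in PE Six3 del36 and 38.5% in PE Six3 WT. Counted as reads, the Six2 promoter libraries fell below other autosomes beyond 60 Mb. They had 140 reads per Mb in del36 and 207 in WT, against means of 273 and 307 per 1-Mb bin. From PE Six3 there were 204 in del36 and 223 in WT, against 160 and 218.

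As a single figure for the decay, the slope of log10 reads per bin on log10 distance was -0.87 in Six2 promoter del36 and -0.50 in Six2 promoter WT. It was -1.18 in PE Six3 del36 and -1.60 in PE Six3 WT. Counted as fragments the slopes were flatter, at -0.25 in Six2 promoter del36, -0.18 in Six2 promoter WT, -0.57 in PE Six3 del36 and -0.48 in PE Six3 WT. Fitted on reads out to 20 Mb only, the slopes were -0.54 in Six2 promoter del36, -0.68 in Six2 promoter WT, -0.97 in PE Six3 del36 and -0.97 in PE Six3 WT. The order of del36 and WT at the Six2 promoter thus turned with the range fitted, and no direction is given for either viewpoint. The slope of Six2 promoter WT moved to -0.15 when contacts inside 3 Mb were left out, so it rested on the nearest bins.

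**Figure D3:**
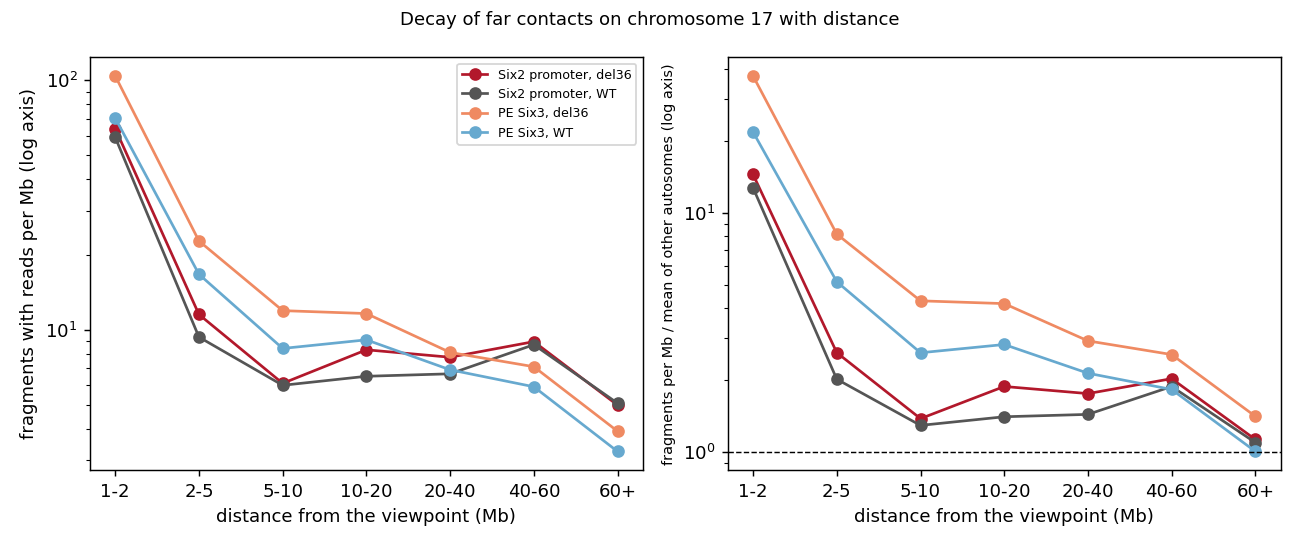
Left: fragments with reads per Mb (log axis) against distance range in Mb. Right: the same divided by the mean of other autosomes (log axis), with the dashed line at 1. Points are single libraries, and all 4 start high at 1 to 2 Mb and end between 1.00 and 1.40 times the mean beyond 60 Mb.

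Counted as fragments and summed over 1 to 9 Mb, contacts were spread nearly evenly over both sides of the viewpoints. Between 1 and 9 Mb, where both sides have sequence, the side toward the chromosome end held 43.2% of reads in Six2 promoter del36, 48.5% in Six2 promoter WT, 47.7% in PE Six3 del36 and 47.4% in PE Six3 WT. It held 49.4% of fragments in Six2 promoter del36 (43.2% to 55.6%), 48.7% in Six2 promoter WT (42.2% to 55.2%), 52.5% in PE Six3 del36 (47.8% to 57.1%) and 51.0% in PE Six3 WT (45.4% to 56.5%). All 4 intervals on fragments hold an even split, while all 4 on reads lie below it. The sum joins opposite imbalances. At 1 to 2 Mb the side toward the chromosome end held 71 fragments against 57 in Six2 promoter del36 and 67 against 51 in WT. From PE Six3 it held 121 against 87 in del36 and 72 against 69 in WT. At 2 to 3 Mb these counts were 20 against 18, 19 against 14, 53 against 27 and 34 against 16. From 3 to 9 Mb the side toward the chromosome start held more in each library.

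For gene content, chromosome 17 was cut into fixed 1-Mb bins, of which 88 lay wholly beyond 1 Mb of both viewpoints. Bins with few genes were the least covered from the Six2 promoter. The 33 bins with 0 to 4 coding genes averaged 4.94 ± 2.49 fragments with reads in Six2 promoter del36 and 4.36 ± 2.18 in Six2 promoter WT (SD between bins). The 16 bins with 5 to 9 genes averaged 9.44 ± 6.08 in Six2 promoter del36 and 8.56 ± 4.24 in Six2 promoter WT. The 24 bins with 10 to 19 genes averaged 10.2 ± 9.59 in Six2 promoter del36 and 9.33 ± 8.51 in Six2 promoter WT. The 15 bins with 20 or more genes averaged 9.40 ± 5.63 in Six2 promoter del36 and 8.27 ± 4.89 in Six2 promoter WT. From PE Six3 both the lowest and the highest class were below the middle classes. There the bins with 0 to 4 genes averaged 7.52 ± 4.00 in del36 and 6.24 ± 2.94 in WT. Those with 20 or more averaged 7.20 ± 3.80 in del36 and 5.60 ± 2.06 in WT. The bins with 5 to 9 genes averaged 12.6 ± 13.0 in del36 and 10.6 ± 11.1 in WT. Those with 10 to 19 averaged 10.9 ± 16.0 in del36 and 7.96 ± 8.73 in WT.

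**Figure D4:**
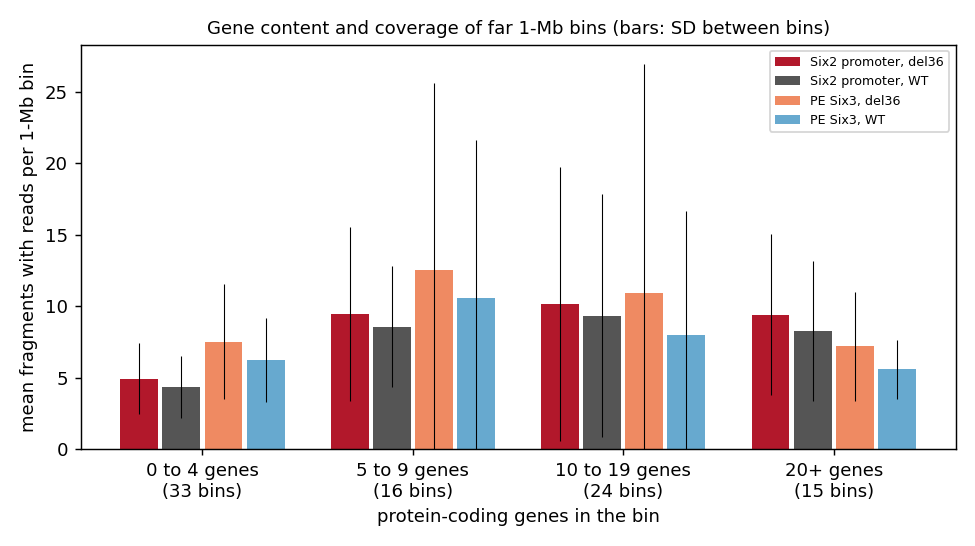
Mean number of fragments with reads per far 1-Mb bin by number of coding genes in the bin. Bars are libraries and error lines the SD between bins, drawn no lower than 0. Bins with 0 to 4 genes average 4.94 fragments in Six2 promoter del36 and 4.36 in Six2 promoter WT, below the other classes, while from PE Six3 the bins with 20 or more genes are as low, at 7.20 in del36 and 5.60 in WT.

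Across the 88 bins, Spearman's rho of coding gene number with covered fragments was 0.44 in Six2 promoter del36 (Pearson's r 0.24) and 0.41 in Six2 promoter WT (r 0.28). It was 0.02 in PE Six3 del36 (r -0.04) and -0.02 in PE Six3 WT (r -0.07). Gene number and distance were linked on this chromosome: the 15 bins under 10 Mb had a median of 1 coding gene, and the 35 bins at 30 to 65 Mb a median of 16. On the residuals of fragments from a straight line on log10 distance, rho was 0.61 in Six2 promoter del36, 0.53 in Six2 promoter WT, 0.53 in PE Six3 del36 and 0.52 in PE Six3 WT. Bins of 1 library share its depth and neighbouring bins share chromatin, so these are descriptions over bins and carry no p. In the 9 libraries of viewpoints on other chromosomes, rho over the same bins ran from -0.25 to 0.63 with a median of 0.27, on 72 to 593 fragments. The Six2 promoter values lie inside that range. On the residuals from such a line, with distance measured from the chromosome 17 viewpoint, rho in those 9 libraries ran from -0.18 to 0.46. The 4 residual values above lie beyond that range. Those 9 libraries have no viewpoint on this chromosome, so the residuals are not alike, and the difference was not tested. Decay was steep near the viewpoint and flatter beyond, so residuals from a straight line can keep an effect of distance. Over the 73 bins more than 10 Mb away, rho without the line was 0.45 in Six2 promoter del36 and 0.40 in Six2 promoter WT. It was 0.11 in PE Six3 del36 and 0.08 in PE Six3 WT. On reads in place of fragments, rho was 0.02 in Six2 promoter del36 and 0.32 in Six2 promoter WT.

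Almost every far bin had some contact in every library. At least 1 fragment with reads was found in all 4 libraries in 86 of the 88 bins. On other autosomes 95.9% of bins had a fragment in Six2 promoter del36, 96.1% in Six2 promoter WT, 91.4% in PE Six3 del36 and 93.8% in PE Six3 WT, so a single fragment does not set a bin apart. The 2 exceptions were chr17:9000001-10000000, with 1 coding gene (Pabpc6) and no read in PE Six3 WT, and chr17:20000001-21000000, a cluster of vomeronasal receptor genes with no read in Six2 promoter del36.

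A bin was called well covered with at least 10 fragments. By this measure 24 bins were well covered in Six2 promoter del36 (27.3%, against 6.99% of bins of other autosomes) and 22 in Six2 promoter WT (25.0%, against 9.08%). From PE Six3 there were 30 in del36 (34.1%, against 1.04%) and 17 in WT (19.3%, against 1.22%). Of the 88 bins, 35 lay 30 to 65 Mb away and 15 under 10 Mb away, so the counts by distance have unequal bases. From the Six2 promoter 13 of the well-covered bins in del36 and 13 in WT lay 30 to 65 Mb away. Under 10 Mb there were 4 in del36 and 4 in WT. From PE Six3, 11 of them in del36 and 8 in WT lay under 10 Mb away, and 9 in del36 and 4 in WT at 30 to 65 Mb.

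Both genotypes shared most well-covered bins from the Six2 promoter. There 17 bins were well covered in both, which is 70.8% of those of del36 and 77.3% of those of WT. Of the 17, 10 lay 30 to 65 Mb away, a range that holds 35 of the 88 bins. From PE Six3, 14 bins were well covered in both, which is 46.7% of those of del36 and 82.4% of those of WT. Between viewpoints, 14 bins were shared in del36 (58.3% of the Six2 promoter list, 46.7% of the PE Six3 list) and 9 in WT (40.9% of the Six2 promoter list, 52.9% of the PE Six3 list). Over the 88 bins, rho of fragments per bin was 0.80 between genotypes at the Six2 promoter and 0.56 at PE Six3, and between viewpoints 0.52 in del36 and 0.38 in WT. All of these pairs share the same fragment map and distance, and the libraries of 1 viewpoint share the primer and part of the fragments.

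**Figure D5:**
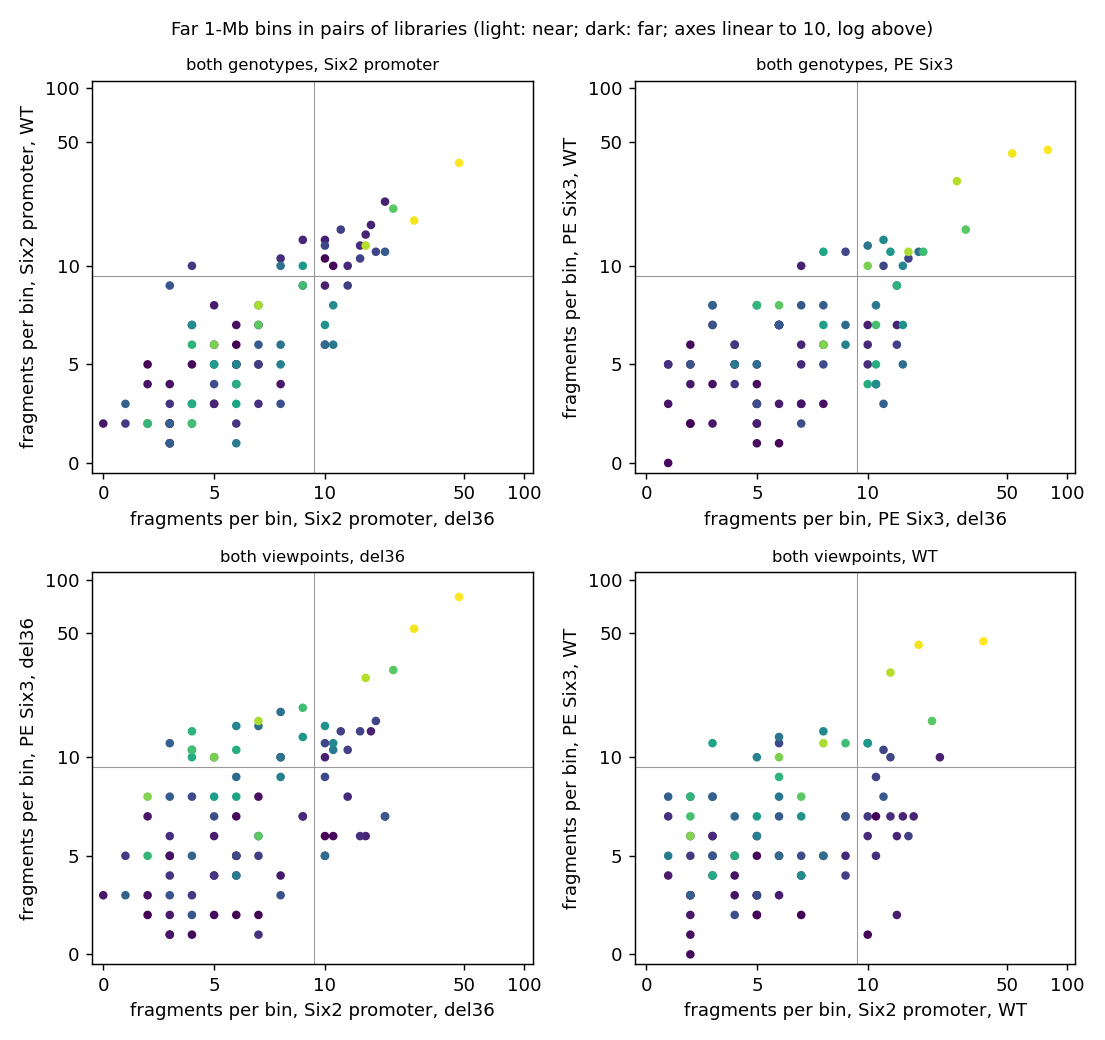
Fragments with reads per far 1-Mb bin in pairs of libraries (axes linear to 10, logarithmic above; upper panels del36 against WT, lower panels PE Six3 against the Six2 promoter). Each point is 1 of 88 bins, lighter when nearer to the viewpoints, and grey lines separate bins with at least 10 fragments. The Six2 promoter genotypes lie closest to a line (rho 0.80), and the viewpoints in WT are the most scattered (rho 0.38).

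There were 6 bins well covered in all 4 libraries. Among those near the viewpoints was chr17:83000001-84000000, with the genes of the microtubule protein Eml4 and the chromatin protein Mta3. It had 28 fragments in Six2 promoter del36, 18 in Six2 promoter WT, 53 in PE Six3 del36 and 43 in PE Six3 WT. Others were chr17:88000001-89000000 with the forkhead gene Foxn2, and chr17:80000001-81000000 with Sos1. A pair lay about 37 and 38 Mb away: chr17:47000001-48000000, with the cyclin gene Ccnd3, Tfeb (a regulator of lysosome genes) and Foxp4, and chr17:48000001-49000000, with the myeloid Trem receptors and Nfya. The bin of Ccnd3 had 18 fragments in Six2 promoter del36, 12 in Six2 promoter WT, 16 in PE Six3 del36 and 11 in PE Six3 WT. It had 33 fragments summed over the 9 libraries of other viewpoints, and that of Nfya had 52.

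A further 7 bins were well covered in 3 libraries. They held between 7 and 38 coding genes, and among them were chr17:46000001-47000000 with Vegfa and the serum response factor gene Srf, and chr17:28000001-29000000 with Mapk14 and Tead3. The 6 bins well covered in all 4 libraries had a median of 12 coding genes and the 7 in 3 libraries a median of 14. The 18 in 2 libraries had a median of 7.5 and the 12 in 1 library a median of 2.5, so gene number did not rise steadily with recurrence. The 45 bins well covered in none had a median of 7, which is also the median of all 88 bins.

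Although bins recurred, single fragments mostly did not. Of the 2857 distinct members, 2513 (88.0%) were read in 1 library only, 342 in a pair, 2 in 3 libraries and 0 in all 4. The share read in 1 library only was 88.4% of 31291 fragments of other autosomes, and 65.7% of 2984 fragments between 10 kb and 1 Mb from the viewpoint. From the Six2 promoter, 231 members were read in both genotypes (29.5% of those of del36, 32.3% of those of WT), and from PE Six3 96 were (9.96% of del36, 13.0% of WT). On other autosomes the fragments read in both genotypes were 28.6% of those of del36 and 27.3% of those of WT at the Six2 promoter, and 7.92% of those of del36 and 6.80% of those of WT at PE Six3. Between viewpoints the overlap was 8 members in del36 (1.02% of those of the Six2 promoter, 0.83% of those of PE Six3). In WT it was 4 (0.56% of those of the Six2 promoter, 0.54% of those of PE Six3). On other autosomes these shares were of like size, at 0.91% and 1.44% in del36 and 0.50% and 0.72% in WT. With at least 10 reads in both genotypes, 53 members remained at the Six2 promoter and 7 at PE Six3.

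Reads of the shared members were unequal. Their counts differed by 20 times or more between genotypes for 111 of 231 members at the Six2 promoter and for 67 of 96 at PE Six3. Taking the lower and the higher count of each shared member, the medians were 2 and 106 reads at the Six2 promoter and 1 and 203 reads at PE Six3. No member ranked among the 50 tallest of both genotypes at either viewpoint. Whether low counts beside tall ones are separate ligations or reads carried between libraries was not tested.

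Reads per bin often differed more than 2-fold between genotypes, on chromosome 17 as on other autosomes. Among bins with at least 20 reads in either library, del36 was more than 2-fold above WT in 22 of 78 bins from the Six2 promoter (28.2%; other autosomes 34.4%) and more than 2-fold below in 22 (28.2%; other autosomes 38.0%). In either direction the share was 56.4%, against 72.4% on other autosomes. From PE Six3, del36 was above WT in 37 of 84 bins (44.0%; other autosomes 63.3%) and below in 29 (34.5%; other autosomes 26.9%), and either way in 78.6%, against 90.2%. These shares were at or below those of other autosomes except for the lower bins of PE Six3. Counted as fragments, del36 was more than 2-fold above WT in 4 of the 78 bins at the Six2 promoter (5.13%; other autosomes 14.7%) and below in 3 (3.85%; other autosomes 11.5%). At PE Six3 it was above in 9 of the 84 (10.7%; other autosomes 24.0%) and below in 11 (13.1%; other autosomes 19.3%).

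Some of the bins with the widest ratios rested on 1 fragment. From the Six2 promoter the highest ratio was at chr17:53000001-54000000, with the acetyltransferase gene Kat2b, which had 1627 reads on 8 fragments in del36 and 8 reads on 3 fragments in WT (log2 7.47, interval 6.49 to 8.69). Its tallest fragment had 708 reads in del36. The lowest was at chr17:18000001-19000000, with vomeronasal and formyl peptide receptor genes, at 4 reads in del36 and 936 in WT (log2 -8.07), of which 933 lay on 1 fragment.

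From PE Six3 the highest ratio was at chr17:59000001-60000000, whose one coding gene is Nudt12, with 1083 reads on 12 fragments in del36 and 3 reads on 3 fragments in WT (log2 10.12). Its tallest fragment had 393 reads in del36. The lowest was the vomeronasal cluster chr17:20000001-21000000, with 3 reads in del36 and 1071 in WT (log2 -6.86), of which 1070 lay on 1 fragment. The next, chr17:29000001-30000000 with the cell cycle inhibitor gene Cdkn1a and the kinase gene Pim1, had 30 reads on 6 fragments in del36 and 5416 on 7 fragments in WT (log2 -5.87). In each of these 3 bins the number of fragments differed far less than the number of reads.

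Most far genes had no member in or near them in a given library. Of 1046 coding genes beyond 1 Mb, 27.2% had a fragment in their span or 5 kb on each side in Six2 promoter del36, 27.8% in Six2 promoter WT, 25.1% in PE Six3 del36 and 21.5% in PE Six3 WT. In all 4 libraries 67 genes (6.41%) were touched, and 475 in none. The 67 had a median length of 113 kb, against 13.1 kb for all 1046, so long genes made up most of them. Coding spans held 47.5% of the members of Six2 promoter del36, 50.3% of Six2 promoter WT, 42.8% of PE Six3 del36 and 43.4% of PE Six3 WT, and they cover 41.3% of the sequence.

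Genes near the limit had most fragments. Thada, a gene found rearranged in thyroid adenomas, spans 276 kb inside the first far bin and had 11 fragments in Six2 promoter del36, 11 in Six2 promoter WT, 30 in PE Six3 del36 and 22 in PE Six3 WT. Epas1, which encodes the hypoxia factor HIF-2α, had 7 fragments in Six2 promoter del36, 11 in Six2 promoter WT, 12 in PE Six3 del36 and 6 in PE Six3 WT. At greater distances Alk had 4 fragments in Six2 promoter del36, 8 in Six2 promoter WT, 9 in PE Six3 del36 and 5 in PE Six3 WT. Dlgap1, which encodes a postsynaptic scaffold protein, had 4 in Six2 promoter del36, 4 in Six2 promoter WT, 11 in PE Six3 del36 and 7 in PE Six3 WT.

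Of 25 developmental regulators, 14 were touched in Six2 promoter del36, 17 in Six2 promoter WT, 13 in PE Six3 del36 and 10 in PE Six3 WT, and 7 in all 4, among them Runx2, Ltbp1, Crim1, Zfp36l2, Epas1 and Foxn2. Runx2, the regulator of bone formation, lies 41.0 Mb from the Six2 viewpoint and had 6 fragments in Six2 promoter del36, 3 in Six2 promoter WT, 4 in PE Six3 del36 and 1 in PE Six3 WT. Dll1, Notch4 and Satb1 were touched in none. The regulators are longer than most genes (median 24.3 kb against 13.1 kb) and some lie close to the viewpoints. Per 100 kb they had 1.26 fragments in Six2 promoter del36, 1.40 in Six2 promoter WT, 1.58 in PE Six3 del36 and 1.04 in PE Six3 WT. All coding genes had 0.99 in Six2 promoter del36, 0.97 in Six2 promoter WT, 1.11 in PE Six3 del36 and 0.82 in PE Six3 WT.

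Genes of clustered families were counted in the same way. Of all 1046 coding genes, 27.2% were touched in Six2 promoter del36, 27.8% in Six2 promoter WT, 25.1% in PE Six3 del36 and 21.5% in PE Six3 WT. All coding genes had a median length of 13.1 kb and between 0.82 and 1.11 fragments per 100 kb. The 46 vomeronasal receptor genes had between 0.15 and 0.22 fragments per 100 kb in the 4 libraries, with 3 genes touched in Six2 promoter del36, 2 in Six2 promoter WT, 3 in PE Six3 del36 and 2 in PE Six3 WT. Of 51 olfactory receptor genes, 4 were touched in Six2 promoter del36, 4 in Six2 promoter WT, 0 in PE Six3 del36 and 2 in PE Six3 WT. Their median length was 0.954 kb, with between 0 and 0.63 fragments per 100 kb. Of 38 genes of the major histocompatibility complex, 2 were touched in Six2 promoter del36, 4 in Six2 promoter WT, 7 in PE Six3 del36 and 6 in PE Six3 WT. Their median length was 4.59 kb, with between 0.32 and 1.11 fragments per 100 kb. Of 46 zinc finger protein genes, 10 were touched in Six2 promoter del36, 4 in Six2 promoter WT, 10 in PE Six3 del36 and 11 in PE Six3 WT. Their median length was 18.8 kb, with between 0.28 and 0.85 fragments per 100 kb. Of 9 genes listed as ribosomal protein genes, 3 were touched in Six2 promoter del36 and 2 in each of the other libraries. Their median length was 4.15 kb, with between 0.58 and 2.92 fragments per 100 kb. Such densities cannot come from 9 genes all near the median length, so the list holds a much longer gene. Whether that gene encodes a ribosomal protein was not checked, so these values may not describe ribosomal protein genes. Of 10 serine protease genes of the Prss family, 1 was touched in Six2 promoter del36, 1 in Six2 promoter WT and 0 in both PE Six3 libraries. Their median length was 5.62 kb, with between 0 and 0.65 fragments per 100 kb. How well reads map to such gene families was not tested.

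Gene starts were touched in like shares from both viewpoints. A member lay within 5 kb of the start of 9.21% of the 869 coding promoters in Six2 promoter del36, 8.52% in Six2 promoter WT, 8.52% in PE Six3 del36 and 7.59% in PE Six3 WT. Promoters rich in CpG (GC at least 50% and an observed over expected CpG of at least 0.6) were touched in 11.3% of cases in Six2 promoter del36 (8.56% to 14.9%), 9.54% in Six2 promoter WT (7.00% to 12.9%), 9.28% in PE Six3 del36 (6.78% to 12.6%) and 7.22% in PE Six3 WT (5.04% to 10.2%). The other promoters were touched in 7.48% of cases in Six2 promoter del36 (5.45% to 10.2%), 7.69% in Six2 promoter WT (5.63% to 10.4%), 7.90% in PE Six3 del36 (5.81% to 10.7%) and 7.90% in PE Six3 WT (5.81% to 10.7%). The intervals of the groups overlap in each library. The windows of Ppt2, Alk and Dnah8 printed with their sequence all count as CpG-rich.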

How the data were processed

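The authors deposited 1 file per library with a value in RPM for each restriction fragment with reads, with HISAT2 and mm10 named as mapper and build in the submitters' processing notes. Neither its version nor any read filter was given in the sources used here. Every RPM value was a whole multiple of the smallest one in its library (100% within 0.1), so reads were recovered by division. A count test on them was not run because each condition has 1 library. Chromatin was cut with NlaIII and then DpnII, per the labels' protocols. Totals were 6056180 reads in Six2 promoter del36, 6169568 in Six2 promoter WT, 2238911 in PE Six3 del36 and 7730539 in PE Six3 WT, and counting error is given as 95% Wilson intervals or, for ratios, exact conditional intervals.

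Distances ran between fragment midpoints in mm10 coordinates also in del36. Decay used 1-Mb bins outward from the viewpoint, and gene content used fixed 1-Mb bins. Log2 ratios compare shares of far reads. Genes and promoters were taken from RefSeq (GRCm38.p6, the assembly of mm10). Named were the 5 tallest members of each library, the bins with most reads or fragments, the 5 bins with the widest ratios each way, and lists of genes; the text gives examples of these, some items are not reported here, and bins or genes covered in all libraries were named after their values were seen. The members and lists were chosen with earlier results of these data known. Computation used Python 3.11.15, numpy 2.4.6, pandas 2.3.3 and scipy 1.17.1 and was tested on simulated data. Alternatives changed the distance limit, the read minimum, a cap on tall fragments, the bin size and the coverage threshold.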

Additional observations from a re-analysis of the deposited data

Results flagged for a closer look

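The log2 ratio of the far share without 10 kb on each side of the viewpoint, del36 over WT, had opposite signs at the 2 viewpoints: -0.27 at the Six2 promoter and 0.15 at PE Six3. With 1 library per condition this difference between viewpoints was not tested.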

How the results depend on the processing

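The 202 recomputed values comprised 102 that stayed within their interval or within 1.5 times (0.1 for rho), 97 that moved and 3 that reversed. Some of the 102 could not change. These were the log2 ratios of the far share on deposited RPM, because RPM only rescales a library. The thinned member number of Six2 promoter WT, the library with the fewest far reads, could not change either. The reversals were the log2 ratio of the far share, del36 over WT, on fragments (-0.081 from the Six2 promoter, -0.11 from PE Six3) and, from the Six2 promoter, without 10 kb on each side of the viewpoint (-0.27). From the Six2 promoter that ratio also moved to 0.15 (limit of 2 Mb), 0.21 (capped at the 99th percentile of far fragments), 0.22 (without the tallest far fragment) and 0.19 (share of all reads). From PE Six3 it moved to 0.43 (limit of 3 Mb), 0.41 (capped), 0.40 (without the tallest), 0.15 (without 10 kb) and 0.21 (share of all reads). The cause was not tested.

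The far share in Six2 promoter del36 became 0.916% and 0.849% at limits of 2 and 3 Mb, 45.4% of fragments, 1.33% with at least 10 reads, 1.32% capped, 1.32% without the tallest fragment and 23.5% without 10 kb. In Six2 promoter WT it became 0.826%, 0.750%, 48.0%, 1.19%, 1.14%, 1.14% and 28.4% in the same order. In PE Six3 del36 it became 4.77%, 4.30%, 36.6%, 6.75%, 6.73%, 6.72% and 26.2%. In PE Six3 WT it became 3.67% and 3.19% at 2 and 3 Mb, 39.4% of fragments, 5.06% capped, 5.08% without the tallest and 23.5% without 10 kb.

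The decay exponent moved on fragments to -0.25 in Six2 promoter del36, -0.18 in Six2 promoter WT, -0.57 in PE Six3 del36 and -0.48 in PE Six3 WT. Out to 20 Mb it was -0.54 in Six2 promoter del36, -0.68 in Six2 promoter WT, -0.97 in PE Six3 del36 and -0.97 in PE Six3 WT, and beyond 3 Mb -0.15 in Six2 promoter WT. The share of reads on the side toward the chromosome end moved in Six2 promoter del36 to 49.4% (fragments), 42.5% (capped) and 40.7% (without the tallest), in PE Six3 del36 to 52.5% (fragments) and 48.7% (without the tallest), and in PE Six3 WT to 51.0%, 47.9% and 49.7%. The rank correlation with gene number moved in Six2 promoter del36 to 0.024 on reads, 0.34 in bins of 0.5 Mb and 0.61 on residuals. On residuals it was 0.53 in Six2 promoter WT, 0.53 in PE Six3 del36 and 0.52 in PE Six3 WT, and in bins of 2 Mb it was -0.14 in PE Six3 WT.

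Bins covered in both genotypes numbered 87 from each viewpoint with at least 1 fragment, and 50 at the Six2 promoter and 49 at PE Six3 with at least 5. With at least 20 they numbered 3 from each. Leaving out fragments with 1 read left 9 at the Six2 promoter and 6 at PE Six3, and bins of 0.5 Mb gave 7 from each. Bins covered in both viewpoints numbered 87 in del36 and 87 in WT with at least 1 fragment, 51 in del36 and 44 in WT with 5, 3 in del36 and 1 in WT with 20, 6 in del36 and 4 in WT without 1-read fragments, and 5 in del36 and 4 in WT in bins of 0.5 Mb. Shared far fragments numbered 124 at the Six2 promoter and 28 at PE Six3 with at least 2 reads, 53 and 7 with at least 10, and 120 and 29 without fragments 20 times taller in the other genotype. Between viewpoints in del36 they numbered 4 with at least 2 reads and 2 with at least 10.

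Bins past 2-fold numbered 4 higher and 3 lower on fragments from the Six2 promoter, 11 lower at 4-fold, and 52 higher and 45 lower in bins of 0.5 Mb. From PE Six3 they numbered 9 higher and 11 lower on fragments, 15 lower at 4-fold, and 69 higher and 47 lower in bins of 0.5 Mb. Thinned to equal far reads, an alternative chosen after seeing the data, PE Six3 WT had 478 members. No paired analysis was possible because each condition has 1 library, and for the same reason no replicate could be left out. At the far end, beyond 60 Mb, the mean density of fragments was between 1.00 and 1.40 times that of other autosomes, and the part of depth in this was not tested.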
